A study of Mus musculus with 9 samples.

Results

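Transcripts of 10 tubulin isotype genes were followed in RAW264.7, a mouse macrophage-like cell line. The genes were chosen by name, as the alpha-tubulin genes Tuba1a, Tuba1b, Tuba1c and Tuba4a and the beta-tubulin genes Tubb2a, Tubb2b, Tubb3, Tubb4b, Tubb5 and Tubb6, and all 10 were among the 43629 genes of the files and among the 14808 that could be tested. Libraries were made from total RNA with a kit that marks strand. The 9 libraries fell into 3 groups of 3 biological replicates. LPS+NaBu cells received sodium butyrate (NaBu), a salt of a short-chain fatty acid that inhibits histone deacetylases, before lipopolysaccharide (LPS), the bacterial ligand of the receptor TLR4. LPS cells received LPS alone, and Control cells neither agent. The labels give no dose or time for these libraries, and no library with NaBu alone was analysed here, so every effect of NaBu is that of NaBu in the presence of LPS. RAW264.7 is a transformed, dividing line, and all libraries came from that line.

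The deposited values were read counts per gene divided by a size factor for each library (here normalised read counts). They were not divided by gene length, so levels were compared between genes only per kilobase of transcript. The libraries held 37625419 to 64380392 counted reads. All 10 macrophage markers were detected in every group, with summed levels of 219494 to 237611 in LPS+NaBu, 656278 to 693145 in LPS and 474322 to 491935 in Control cells. A gene was called higher or lower at an adjusted p under 0.05 in limma, fitted to log2(normalised read count + 1) of all 9 libraries with Benjamini-Hochberg adjustment over the 14808 genes. By this rule all 10 macrophage markers were lower in LPS+NaBu than in LPS (median log2 change -2.31), beside 37.8% of all genes. Against Control 9 were lower and 1 higher in LPS+NaBu, beside 35.1% and 40.9% of all genes. In LPS against Control 7 were higher and 1 lower, beside 25.2% and 30.8%. In bulk RNA, fewer expressing cells and less RNA per cell cannot be told apart.

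Microtubules are hollow filaments of alpha- and beta-tubulin heterodimers that serve as tracks for vesicle traffic, shape the cell and form the mitotic spindle. Mammals encode several isotypes of each subunit that differ mainly in their carboxy-terminal tails, which face outward from the filament and carry most of the modifications made after translation, such as glutamylation and removal of the terminal tyrosine. Tuba1b and Tubb5 are the main isotypes of dividing cells, Tubb4b is broadly expressed, Tubb6 is an isotype of many non-neuronal cells, and Tuba1a, Tubb2a, Tubb2b and Tubb3 are best known from neurons. Cells also hold tubulin mRNA in check by autoregulation. Excess soluble tubulin leads the factor Ttc5 to bind the first residues of nascent tubulin on the ribosome, and Ttc5 with Scaper brings in the CCR4-NOT deadenylase that degrades the mRNA.

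7 of the isotypes are shown by the last 60 coding bases of their annotated canonical transcripts (GENCODE M39, GRCm39, stop codon included), because this stretch encodes the tail in which they differ most. Glutamate codons (GAA and GAG), the acceptors of glutamylation, are in capitals. Each sequence is read 5′ to 3′ in the sense of the mRNA.
Tuba1c: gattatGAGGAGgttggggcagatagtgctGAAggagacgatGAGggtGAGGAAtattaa
Tuba4a: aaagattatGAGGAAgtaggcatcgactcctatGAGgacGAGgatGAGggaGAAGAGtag
Tubb2a: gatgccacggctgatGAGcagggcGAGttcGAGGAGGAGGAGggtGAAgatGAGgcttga
Tubb2b: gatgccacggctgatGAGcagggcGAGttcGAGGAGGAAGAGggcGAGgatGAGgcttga
Tubb3: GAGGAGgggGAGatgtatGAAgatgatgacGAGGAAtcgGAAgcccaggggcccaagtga
Tubb4b: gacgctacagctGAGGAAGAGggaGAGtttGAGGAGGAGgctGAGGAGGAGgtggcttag
Tubb5: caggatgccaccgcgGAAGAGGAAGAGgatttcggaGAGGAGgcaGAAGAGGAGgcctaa

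Between Tuba1a and Tuba1b, which moved in opposite directions with NaBu, the coding sequences were 98.3% identical. Tuba1c was 85.2% identical to Tuba4a over the coding sequence but only 58.7% over the last 60 bases. Tuba1c ends on the tyrosine codon TAT and Tuba4a ends on the glutamate codon GAG, so that its product lacks the encoded tyrosine. Among the beta isotypes, Tubb2a and Tubb2b were 95.0% identical over the last 60 bases, whereas Tubb3 and Tubb5 were 45.0% identical there and 81.2% over the whole coding sequence. The number of glutamate codons among the 19 sense codons shown ran between 6 in Tuba1c and 10 in Tubb4b, with 7 in Tubb3. The first 12 coding bases encode the residues read in autoregulation. They were atgcgtgagtgc in Tuba1c and atgcgcgagtgc in Tuba4a. In the beta isotypes they were atgcgcgagatc in Tubb2a, atgcgagagatc in Tubb2b, atgagggagatc in Tubb3 and Tubb4b and atgagggaaatc in Tubb5.

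In GRCm39, Tuba1a (chr15:98847714-98851589), Tuba1b (chr15:98827738-98832493) and Tuba1c (chr15:98927748-98936266) lie in a cluster on chromosome 15, and Tubb2a (chr13:34257549-34261998) and Tubb2b (chr13:34307245-34315143) lie beside each other on chromosome 13. Tuba4a (chr1:75189219-75196566), Tubb3 (chr8:124138163-124150092), Tubb4b (chr2:25112170-25114714), Tubb5 (chr17:36144809-36149198) and Tubb6 (chr18:67523585-67536773) lie on chromosomes of their own. Each canonical transcript has 4 exons. Likeness between genes limits which reads can be counted. Of all 150-base windows of the transcript, 37.4% in Tuba1a, 27.3% in Tuba1b, 40.2% in Tuba1c, 18.7% in Tubb2a, 7.2% in Tubb2b and 16.8% in Tubb4b also occur at another locus, in each other, in pseudogenes or in further annotated loci, whereas none does in Tubb3, Tubb5, Tubb6 or Tuba4a. Of the windows, 31.9% in Tuba1a, 14.1% in Tuba1b, 37.3% in Tuba4a, 78.4% in Tubb2a, 36.3% in Tubb5 and 57.4% in Tubb6 lie within another gene annotated over the same place. The levels of the alpha cluster therefore rest on part of each transcript and are uncertain to that extent. Such windows make the levels of the other isotypes but Tubb3 uncertain too.

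Every isotype differed between LPS+NaBu and LPS cells. Against LPS alone, 4 isotypes were higher in LPS+NaBu cells, Tuba1a, Tubb2a, Tubb2b and Tubb3, and the other 6 were lower. The libraries of LPS+NaBu and LPS did not overlap for any of the 10 genes. A change was common in this comparison, since 78.1% of all genes tested were called, 40.2% higher and 37.8% lower, and the libraries of 79.0% did not overlap. The count of 10 called isotypes is read against that background. By at least 1 on the log2 scale, 21.4% of genes were called higher and 16.0% lower. The 4 isotypes that rose did so by 2.96 to 4.93. The largest rise was that of Tubb3, which passed the filter on low values only through LPS+NaBu. Of the 6 that fell, Tuba4a (log2 change -0.60) and Tubb4b (-0.51) did so by less than 1.

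**Figure D1:**
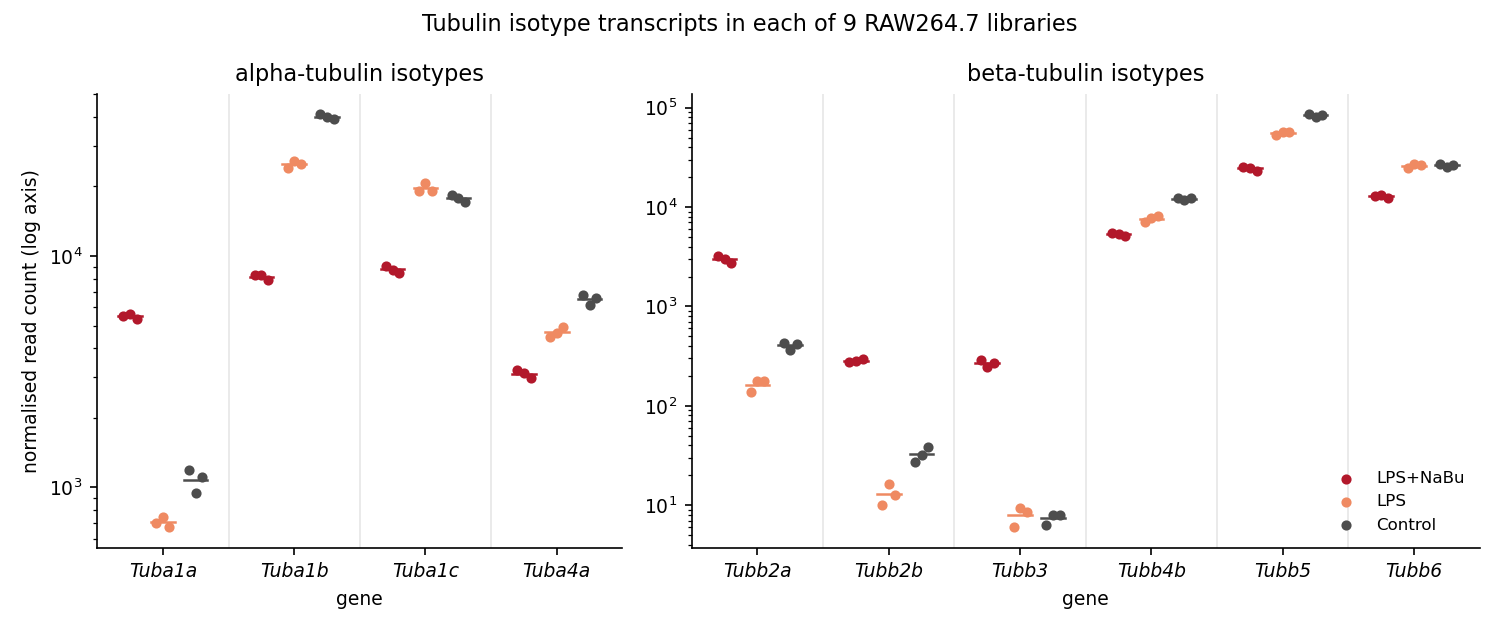
Normalised read counts of the 10 tubulin isotypes, on a log axis, with a point for each library, a line at the mean of 3 and colours for LPS+NaBu, LPS and Control. Tuba1a, Tubb2a, Tubb2b and Tubb3 lie highest in LPS+NaBu libraries and the other 6 lie lowest there.

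Tubb3, which encodes the beta-III isotype used as a marker of neurons, showed the largest rise of the 10. It stood at 289, 248 and 270 normalised read counts in LPS+NaBu, against 6.02, 9.39 and 8.47 in LPS and 6.36, 8.001 and 8.05 in Control libraries. Behind these lie 222 to 420 reads per LPS+NaBu library and 6 to 8 reads in each of the other 6, so Tubb3 was near the limit of detection without NaBu and passed the filter on low values only through LPS+NaBu, which makes its call no independent support for a rise. The mean was 33.8-fold higher in LPS+NaBu than in LPS (log2 change 4.93 ± 0.27 SE, adjusted p = 1.55e-09), and 245 genes had a larger log2 change. Against Control it was 36.0-fold higher (log2 change 4.998, adjusted p = 1.51e-09). Even so, Tubb3 made up a mean of 0.458% of the level per kilobase summed over the listed beta isotypes in LPS+NaBu cells. That sum left out other beta-tubulin genes, such as Tubb4a, which averaged 613 normalised read counts in LPS+NaBu.

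Tubb2a and Tubb2b, neighbours that encode nearly the same beta-II protein, rose together. Tubb2a stood at 3226, 2998 and 2713 in LPS+NaBu, against 137, 177 and 177 in LPS and 428, 366 and 422 in Control libraries. Tubb2b stood at 275, 284 and 296 in LPS+NaBu, against 10.03, 16.4 and 12.7 in LPS and 27.0, 32.0 and 38.2 in Control libraries. For both genes the 3 groups were fully apart, with LPS lowest and LPS+NaBu highest. Tubb2a was 18.2-fold higher in LPS+NaBu than in LPS (log2 change 4.18 ± 0.11 SE, adjusted p = 1.80e-12) and Tubb2b 21.8-fold (4.37 ± 0.23, adjusted p = 1.19e-09). Against Control the rises were 7.35-fold for Tubb2a (adjusted p = 6.54e-11) and 8.79-fold for Tubb2b (adjusted p = 4.33e-08). Transcripts of Bphl, on the opposite strand, cover 78.4% of the windows of Tubb2a. Bphl averaged 518 ± 25.9 in LPS+NaBu, 355 ± 11.5 in LPS and 465 ± 24.9 in Control cells (SD, n = 3 each), and the sources used here do not say whether strand was used in the counting.

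As these neighbours moved together, the 250 bases before their annotated canonical starts are shown (GRCm39, minus strand, written in the sense of each gene). Capitals mark 3 promoter motifs searched on both strands, which are the CCAAT box, the GC box written GGGCGG and the TATA box written TATAAA. A match on the other strand shows as the reverse complement, such as CCGCCC for the GC box.
Tubb2a: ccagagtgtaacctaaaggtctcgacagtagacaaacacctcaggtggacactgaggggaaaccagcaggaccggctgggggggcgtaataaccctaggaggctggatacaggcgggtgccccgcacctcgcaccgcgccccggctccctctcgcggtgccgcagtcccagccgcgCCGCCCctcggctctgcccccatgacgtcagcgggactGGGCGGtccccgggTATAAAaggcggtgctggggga
Tubb2b: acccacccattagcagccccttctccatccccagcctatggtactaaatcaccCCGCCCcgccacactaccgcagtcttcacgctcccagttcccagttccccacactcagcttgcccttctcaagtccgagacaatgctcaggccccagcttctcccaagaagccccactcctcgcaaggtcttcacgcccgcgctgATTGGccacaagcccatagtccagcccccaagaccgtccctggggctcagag

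The window of Tubb2a (chr13:34261999-34262248) held GGGCGG at 2 places and TATAAA at 1, with 67.6% G and C. The window of Tubb2b (chr13:34314464-34314713) held GGGCGG at 1 place and CCAAT at 1, with 61.6% G and C. Over 21770 promoter windows of 250 bases, 36.3% held GGGCGG, 36.5% CCAAT and 11.9% TATAAA, and the median content of G and C was 53.2%. Among the other isotypes, GGGCGG stood at 1 place in Tubb3, which rose, and at 1 place each in Tuba1b and Tubb4b, which fell. CCAAT stood at 5 places in Tubb4b, at 2 in Tubb5 and at 1 each in Tuba1b, Tuba1c and Tubb6, all of which fell. TATAAA was in none of them, and Tuba1a and Tuba4a held none of the 3 motifs. Another motif searched, TTTGAA, was at 1 place in Tubb4b and in no other isotype, beside 15.6% of all windows. These are matches of letters only, and the window depends on which start is annotated.

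Tuba1a, the main alpha isotype of developing neurons, was the only alpha isotype of the 4 that rose. It stood at 5530, 5599 and 5357 in LPS+NaBu, against 704, 747 and 674 in LPS and 1191, 947 and 1108 in Control libraries. It was 7.76-fold higher in LPS+NaBu than in LPS (log2 change 2.96 ± 0.08 SE, adjusted p = 1.37e-12) and 5.08-fold higher than in Control (2.35, adjusted p = 1.20e-11). With 918 genes above it in the order of log2 changes, its rise was smaller than those of the 3 beta isotypes, but it started from a higher level.

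Tuba1b, the alpha isotype of dividing cells, showed the largest fall. It stood at 8327, 8256 and 7882 in LPS+NaBu, against 24022, 25843 and 25078 in LPS and 41083, 39888 and 39004 in Control libraries. The 3 groups were fully apart. It was 3.06-fold lower in LPS+NaBu than in LPS (log2 change -1.61 ± 0.04 SE, adjusted p = 1.85e-12) and 4.90-fold lower than in Control (-2.29, adjusted p = 9.65e-14), where 328 genes had a lower log2 change. Tubb5, the most abundant beta isotype in every group, followed the same order. It stood at 25391, 24709 and 23186 in LPS+NaBu, against 53342, 57001 and 57425 in LPS and 85966, 80961 and 85241 in Control libraries, a level 2.29-fold lower than in LPS (log2 change -1.20, adjusted p = 1.23e-10) and 3.44-fold lower than in Control (-1.78, adjusted p = 3.17e-12). Flot1, which overlaps Tubb5 on the opposite strand, averaged 4776 ± 233 in LPS+NaBu, 1246 ± 48.7 in LPS and 923 ± 36.5 in Control cells (SD, n = 3 each), higher where Tubb5 was lower.

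Tuba4a and Tubb4b fell by the least. Tuba4a, the alpha isotype that lacks an encoded tyrosine, stood at 3205, 3119 and 2970 in LPS+NaBu, against 4451, 4659 and 4939 in LPS and 6778, 6162 and 6592 in Control libraries. It was 1.51-fold lower in LPS+NaBu than in LPS (log2 change -0.60, adjusted p = 2.69e-07). Tubb4b, a broadly expressed isotype that also serves in cilia, stood at 5455, 5404 and 5156 in LPS+NaBu, against 7085, 7693 and 8051 in LPS and 12332, 11689 and 12444 in Control libraries. It was 1.43-fold lower in LPS+NaBu than in LPS (log2 change -0.51, adjusted p = 8.74e-07). Against Control, LPS+NaBu cells were 2.10-fold lower for Tuba4a and 2.28-fold lower for Tubb4b, and the 3 groups did not overlap for either gene. Stk16, which overlaps Tuba4a on the opposite strand, averaged 2655 ± 85.3 in LPS+NaBu, 2287 ± 124 in LPS and 2504 ± 88.7 in Control cells (SD, n = 3 each).

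Tuba1c and Tubb6 were lower in LPS+NaBu than in either other group. Tuba1c, a widely expressed alpha isotype, stood at 9088, 8747 and 8461 in LPS+NaBu, against 19035, 20683 and 19214 in LPS and 18348, 17884 and 17203 in Control libraries. Tubb6, which encodes beta-V tubulin, stood at 13045, 13077 and 12209 in LPS+NaBu, against 24506, 27117 and 26619 in LPS and 27199, 25076 and 26366 in Control libraries. The LPS+NaBu libraries lay below all 6 others for both genes. Tuba1c was 2.24-fold lower in LPS+NaBu than in LPS (log2 change -1.16, adjusted p = 7.77e-11), and Tubb6 was 2.04-fold lower (-1.03, adjusted p = 6.17e-10). Against Control the falls were 2.03-fold for Tuba1c and 2.05-fold for Tubb6. Afg3l2, which overlaps Tubb6 on the opposite strand, averaged 14120 ± 281 in LPS+NaBu, 6097 ± 93.4 in LPS and 8733 ± 187 in Control cells (SD, n = 3 each). The LPS+NaBu against Control comparison thus had the same split of 4 isotypes higher and 6 lower, beside 40.9% of all genes called higher and 35.1% lower, 76.1% together, and 79.4% without overlap of their libraries. By at least 1 on the log2 scale, 20.7% of genes were called higher and 13.5% lower, sizes that all 4 and all 6 isotypes reached. Of the 4, Tubb3 passed the filter on low values only through LPS+NaBu. The 2 comparisons share the LPS+NaBu libraries.

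**Figure D2:**
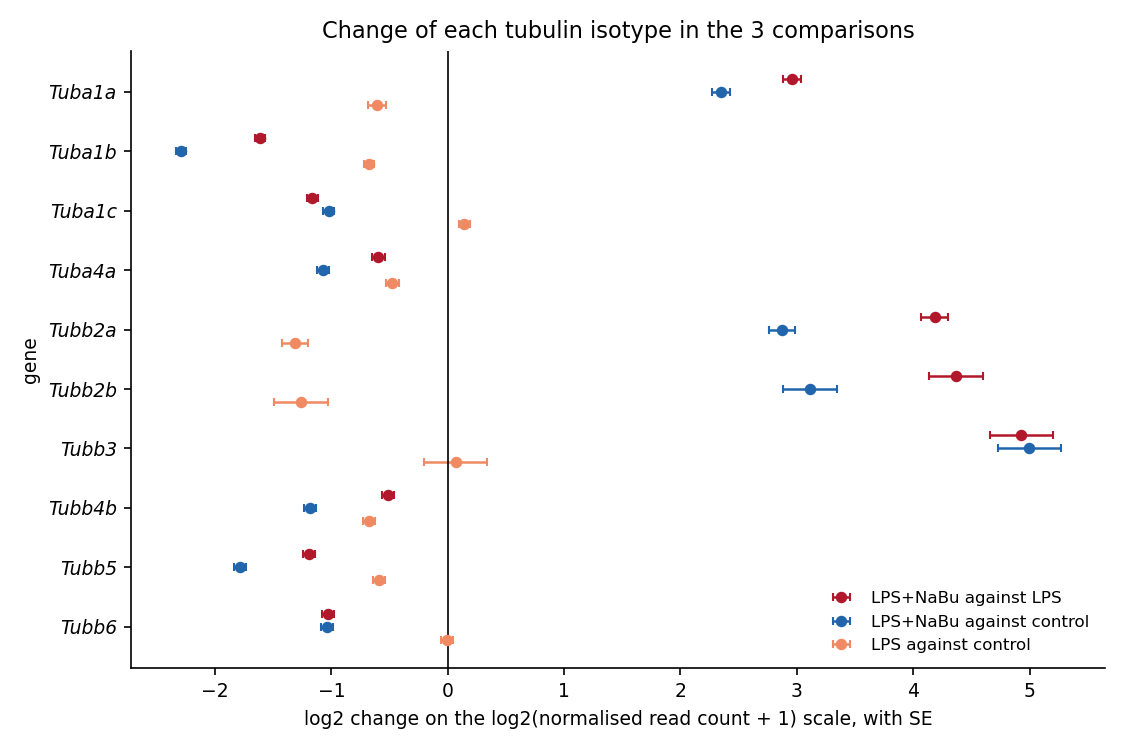
Log2 change of each tubulin isotype with its SE in LPS+NaBu against LPS, LPS+NaBu against Control and LPS against Control. Both comparisons with LPS+NaBu put the same 4 genes to the right of 0, with Tubb3 at 4.93 and 4.998, whereas LPS alone put Tubb2a at -1.31.

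Most isotypes were lower with LPS alone. Against Control, 7 were lower in LPS cells, 1 was higher and 2 were not called. In this comparison 56.1% of all genes were called, 25.2% higher and 30.8% lower, and the libraries of 60.6% did not overlap. By at least 1 on the log2 scale, 8.41% were called higher and 6.02% lower. The largest falls were in Tubb2a (log2 change -1.31 ± 0.11 SE, adjusted p = 4.33e-07) and Tubb2b (-1.26 ± 0.23, adjusted p = 0.000448), both among the isotypes that rose with NaBu. Tuba1b and Tubb4b fell by 0.68 each (adjusted p = 2.36e-08 and 1.29e-07), Tuba1a by 0.61 (adjusted p = 1.82e-05), Tubb5 by 0.59 (adjusted p = 4.33e-07) and Tuba4a by 0.48 (adjusted p = 5.86e-06) on the log2 scale. For all 7 the LPS and Control libraries did not overlap. Tubb6 (log2 change -0.01 ± 0.05, adjusted p = 0.914) and Tubb3 (0.07 ± 0.27, adjusted p = 0.853) were not called, and their libraries overlapped.

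Tuba1c was the only isotype called higher in LPS cells, and by little. Its log2 change was 0.14 ± 0.05 SE (adjusted p = 0.0217), with all 3 LPS libraries above all 3 Control libraries. This call depended on the scale. With all libraries scaled to the same sum, which shifts LPS against Control by -0.23 on the log2 scale, the value for Tuba1c was -0.086, and after quantile normalization it was -0.18. Tubb6 was called lower under both, at -0.24 and -0.35. The call of Tuba1c was also lost without Control replicate 3 (adjusted p = 0.0906) or without LPS replicate 2 (adjusted p = 0.0787). The directions of the other 7 called isotypes were the same under all 3 scalings.

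Per kilobase of canonical transcript, Tubb5 was the most abundant isotype in all groups, at 9211 ± 426 in LPS+NaBu, 21087 ± 846 in LPS and 31695 ± 1020 in Control cells (SD, n = 3 each). The order below it differed between groups. In LPS+NaBu cells Tubb6 came next, then Tuba1c, Tubb4b, Tuba1a, Tuba1b, Tubb2a, Tuba4a, Tubb3 and Tubb2b, with no overlap between neighbours over the libraries. In LPS cells the order was Tubb6, Tuba1c, Tuba1b, Tubb4b, Tuba4a, Tuba1a, Tubb2a, Tubb3 and Tubb2b, where Tubb6 overlapped with Tuba1c and Tubb3 with Tubb2b. In Control cells it was Tuba1b, Tubb6, Tuba1c, Tubb4b, Tuba4a, Tuba1a, Tubb2a, Tubb2b and Tubb3, where Tuba1c and Tubb4b overlapped. Per kilobase, Tuba1b thus stood in place 6 in LPS+NaBu, 4 in LPS and 2 in Control cells. Tuba1a stood in place 5 in LPS+NaBu and in place 7 in both other groups. These places depend on the length used. Without division by length Tuba1b was above Tuba1a in LPS+NaBu cells, at 32.0% against 21.5% of the alpha pool. The places also rest on the part of each transcript that can be counted, so libraries without overlap leave the order of genes uncertain.

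The summed level of the 4 alpha isotypes per kilobase was 10204 ± 295 in LPS+NaBu, 17793 ± 680 in LPS and 22194 ± 628 in Control cells, and that of the 6 beta isotypes was 18346 ± 794 in LPS+NaBu, 34868 ± 1609 in LPS and 48470 ± 1634 in Control cells (SD, n = 3 each). On the deposited scale the summed level in LPS+NaBu cells was thus 57.3% of the alpha and 52.6% of the beta level of LPS cells. It was 46.0% of the alpha and 37.9% of the beta level of Control cells. These percentages depend on the scaling of the libraries, since scaling to the same sum shifts LPS+NaBu against LPS by 0.28 on the log2 scale. The shares within each pool do not depend on how libraries are scaled to each other. Tuba1a made up 29.3%, 30.1% and 30.0% of the alpha pool in LPS+NaBu, against 2.27%, 2.23% and 2.11% in LPS and 2.88%, 2.38% and 2.83% in Control libraries. Tuba1b made up 23.8% ± 0.0835 in LPS+NaBu, 41.8% ± 0.357 in LPS and 53.7% ± 0.256 in Control cells. Tuba1c took the largest share in LPS+NaBu (37.7% ± 0.444) and LPS cells (48.4% ± 0.692), against 35.2% ± 0.404 in Control cells. The share of Tuba4a was 8.75% ± 0.0885 in LPS+NaBu, 7.59% ± 0.412 in LPS and 8.46% ± 0.358 in Control cells.

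In the beta pool, Tubb5 made up 50.2% ± 0.197 in LPS+NaBu, 60.5% ± 0.381 in LPS and 65.4% ± 0.107 in Control cells. Tubb2a made up 7.30%, 6.93% and 6.68% in LPS+NaBu, against 0.179%, 0.214% and 0.211% in LPS and 0.370%, 0.338% and 0.369% in Control libraries. Tubb4b made up 18.2% ± 0.252 in LPS+NaBu, 13.6% ± 0.333 in LPS and 15.7% ± 0.148 in Control cells. The share of Tubb6 was higher in both treated groups, at 23.9% ± 0.288 in LPS+NaBu and 25.7% ± 0.356 in LPS, against 18.6% ± 0.213 in Control cells. Tubb2b made up 0.269% ± 0.0216 in LPS+NaBu cells. The shares of 9 isotypes gave p = 0.1 between each pair of groups in an exact two-sided permutation test, the smallest p that 3 libraries against 3 allow. For Tuba4a both comparisons with LPS also gave this value, and LPS+NaBu against Control gave an exact p of 0.3. The size of a share depends on the length used, and without division by length Tuba1a made up 21.5% and Tuba1b 32.0% of the alpha pool in LPS+NaBu cells. In both pools it also rests on the part of each transcript that can be counted.

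**Figure D3:**
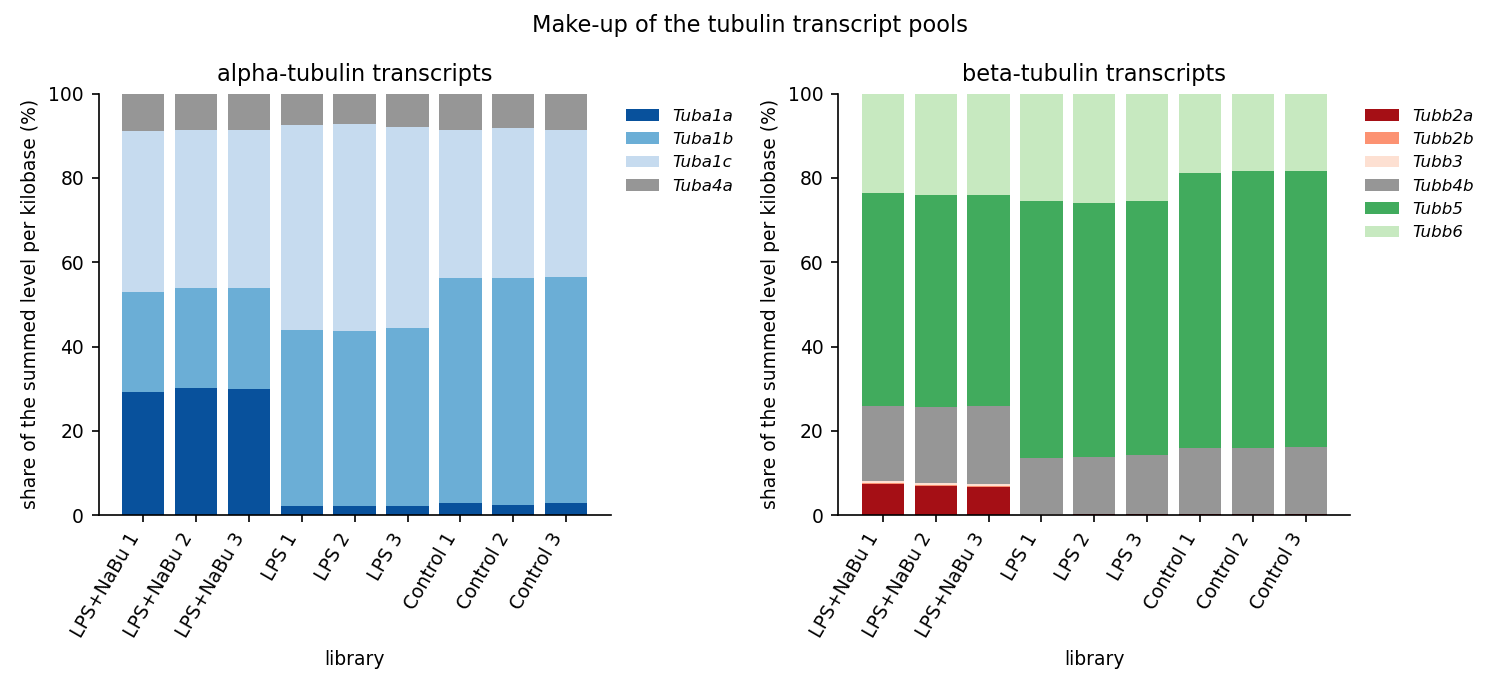
Share of each isotype in the summed alpha-tubulin (left) and beta-tubulin (right) level per kilobase, in percent, with a stacked bar for each library. Tuba1a fills about 30.0% of the alpha bars in LPS+NaBu libraries and under 3% in the others, and Tubb2a is visible in the beta bars of LPS+NaBu only.

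Lists of genes that act with the isotypes were described by their counts and their medians. Over all genes tested the median log2 change was 0.02 in LPS+NaBu against LPS, 0.09 in LPS+NaBu against Control and -0.05 in LPS against Control. The shares called higher and lower were 40.2% and 37.8% in the first comparison and 40.9% and 35.1% in the second. They were 25.2% and 30.8% in the third. Of 10 other tubulin genes 7 could be tested, and 5 were higher and 2 lower in LPS+NaBu than in LPS (median 0.57). Tuba3a, Tuba3b and Tubal3 were not tested. Tubg2, a gamma-tubulin that nucleates microtubules, averaged 213 in LPS+NaBu, 48.7 in LPS and 73.1 in Control cells (log2 change 2.12 against LPS, adjusted p = 7.44e-07), and Tubg1, the main gamma-tubulin, averaged 6887 in LPS+NaBu, 3597 in LPS and 4798 in Control cells (0.94, adjusted p = 5.99e-09). Tubb1, the beta isotype of platelets, averaged 27.3 in LPS+NaBu, 5.96 in LPS and 2.66 in Control cells and passed the filter on low values only through LPS+NaBu. Tuba8 went another way. It stood at 53.6, 53.5 and 50.8 in LPS+NaBu, against 132, 200 and 161 in LPS and 3.18, 8.001 and 8.05 in Control libraries, which made it higher in LPS than in Control cells (4.55, adjusted p = 4.62e-08) and lower in LPS+NaBu than in LPS (-1.60, adjusted p = 0.000383).

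Of 26 enzymes that modify tubulin 18 could be tested, and 14 were higher and 3 lower in LPS+NaBu than in LPS, with a median log2 change of 1.05, beside 40.2% higher and 37.8% lower over all genes. The 14 include Ttll9 and Ttll13, which passed the filter only through LPS+NaBu. LPS+NaBu against Control also gave 14 higher and 3 lower (median 0.73), beside 40.9% and 35.1% of all genes. LPS against Control gave 3 higher and 10 lower (median -0.34), beside 25.2% and 30.8% of all genes. Ttll1, the catalytic subunit of a polyglutamylase complex, stood at 9918, 9740 and 9586 in LPS+NaBu, against 535, 540 and 521 in LPS and 980, 820 and 942 in Control libraries, 18.3-fold higher than in LPS (log2 change 4.19, adjusted p = 2.48e-14). Ttll13, another polyglutamylase, stood at 69.4, 56.9 and 56.2 in LPS+NaBu, against 0, 0 and 2.82 in LPS and 1.59, 7.001 and 7.04 in Control libraries. Such enzymes add glutamate chains to residues encoded by the glutamate codons in the tails printed above. Ttll4, of the same family, was lower, averaging 1670 in LPS+NaBu, 3367 in LPS and 3494 in Control cells (-1.01 against LPS, adjusted p = 3.41e-08).

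Vash1, which with Svbp removes the terminal tyrosine of alpha-tubulin, stood at 259, 239 and 287 in LPS+NaBu, against 16.0, 15.3 and 18.4 in LPS and 66.8, 42.0 and 22.1 in Control libraries (log2 change 3.90 against LPS, adjusted p = 9.81e-08). Its relative Vash2 averaged 375 in LPS+NaBu, 218 in LPS and 517 in Control cells, higher than in LPS (0.78, adjusted p = 9.27e-06) and lower than in Control (-0.46, adjusted p = 0.000959). Ttl, which adds the tyrosine back, averaged 2644 in LPS+NaBu, 1557 in LPS and 1857 in Control cells (0.76 against LPS, adjusted p = 6.76e-08). Svbp, the partner of both vasohibins, averaged 1075 in LPS+NaBu, 1286 in LPS and 387 in Control cells (-0.26 against LPS, adjusted p = 0.0181). Of the acetylation enzymes, those that add and those that remove the mark were higher. Atat1, the alpha-tubulin acetyltransferase, averaged 1372 in LPS+NaBu, 471 in LPS and 370 in Control cells (1.54 against LPS, adjusted p = 9.40e-09). The deacetylases Hdac6, at 3114 in LPS+NaBu, 1154 in LPS and 1584 in Control cells (1.43, adjusted p = 1.32e-11), and Sirt2, at 7008 in LPS+NaBu, 3194 in LPS and 2571 in Control cells (1.13, adjusted p = 4.29e-10), were higher than in LPS as well.

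**Figure D4:**
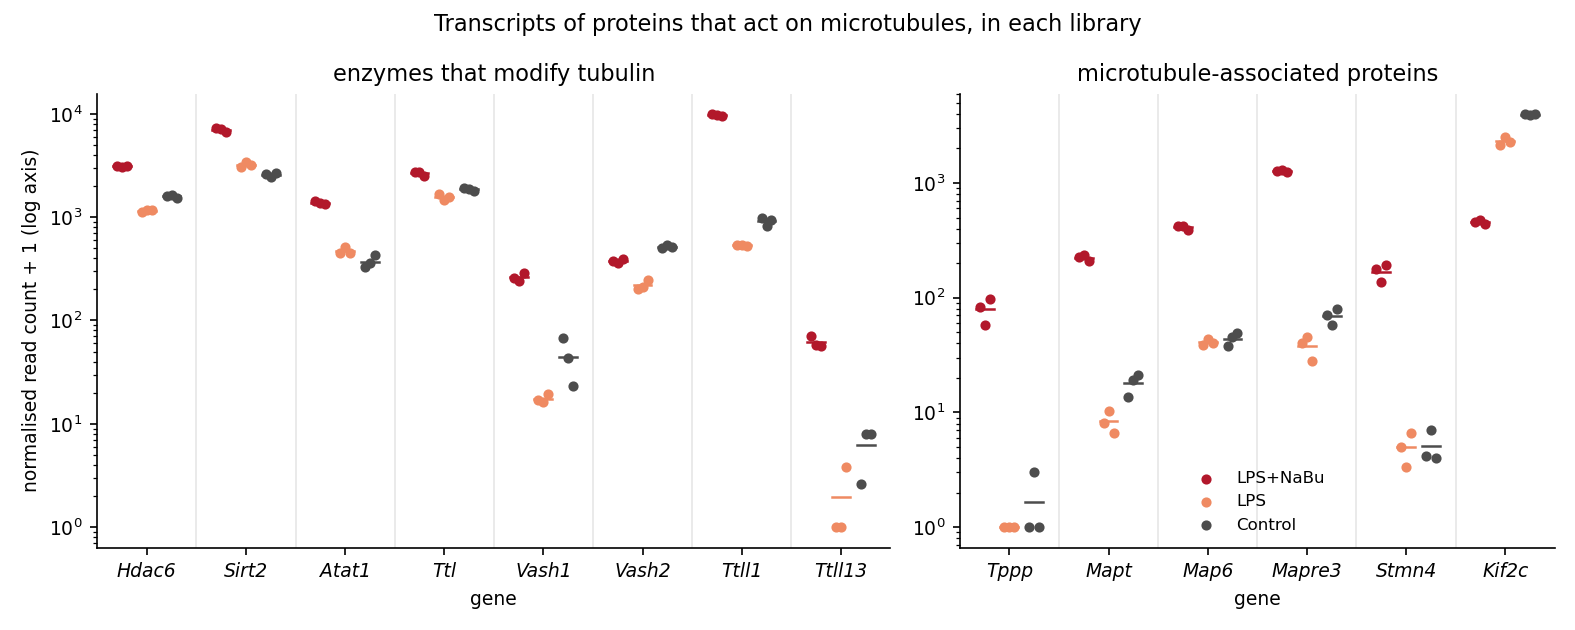
Normalised read counts plus 1, on a log axis, of enzymes that modify tubulin (left) and of microtubule-associated proteins (right), with a point for each library and a line at the mean of 3. All 14 genes but Vash2 and Kif2c are highest in LPS+NaBu libraries, with Ttll1 near 9748 and Mapre3 near 1274.

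Among structural microtubule-associated proteins, 15 of 23 could be tested. Of these, 11 were higher and 4 lower in LPS+NaBu than in LPS (median log2 change 0.97), beside 40.2% and 37.8% of all genes. Against Control 11 were also higher and 4 lower (median 0.97), beside 40.9% and 35.1% of all genes. The 11 include Tppp and Camsap3, which passed the filter only through LPS+NaBu. Mapt, which encodes tau, stood at 225, 235 and 207 in LPS+NaBu, against 7.02, 9.39 and 5.65 in LPS and 12.7, 18.002 and 20.1 in Control libraries (4.76, adjusted p = 2.66e-09). Map6, a stabiliser of microtubules against cold, averaged 412 in LPS+NaBu, 39.97 in LPS and 43.0 in Control cells (3.33, adjusted p = 6.49e-10). Tppp, a bundling protein of oligodendrocytes, stood at 82.5, 56.9 and 97.1 in LPS+NaBu and had no read in any LPS library. Against a floor of 3 reads per library it was at least 22.0-fold higher.

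At plus ends, 16 of 18 genes could be tested. Of these, 7 were higher and 7 lower in LPS+NaBu than in LPS (median -0.14), beside 40.2% and 37.8% of all genes. Mapre3, an end-binding protein, averaged 1274 in LPS+NaBu, 36.8 in LPS and 68.5 in Control cells (log2 change 5.10 against LPS, adjusted p = 3.19e-11). Dst and Clip4 averaged 51.2 and 16.0 in LPS+NaBu, against 13.4 and 2.55 in LPS cells. The largest fall was in Tacc2, at 586 in LPS+NaBu, 1538 in LPS and 2851 in Control cells (-1.39, adjusted p = 3.45e-10). Among destabilizers and severing enzymes 12 of 16 could be tested. They gave 7 higher and 5 lower (median 0.34), beside 40.2% and 37.8% of all genes. Stmn4, a stathmin that sequesters tubulin dimers, averaged 167 in LPS+NaBu, 4.002 in LPS and 4.07 in Control cells and passed the filter on low values only through LPS+NaBu, as did Clip4. Katnal2, a katanin-like protein, averaged 133 in LPS+NaBu, 47.8 in LPS and 104 in Control cells (1.45, adjusted p = 9.51e-06). Kif2c, a kinesin that depolymerises microtubules in mitosis, averaged 459 in LPS+NaBu, 2326 in LPS and 3950 in Control cells (-2.34, adjusted p = 2.06e-12).

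Of 23 folding and assembly cofactors, 7 were higher and 12 lower in LPS+NaBu than in LPS (median log2 change -0.22), beside 40.2% and 37.8% of all genes. In LPS against Control 13 were higher and 3 lower (median 0.16), beside 25.2% and 30.8% of all genes. Cct3, a subunit of the chaperonin that folds tubulin, averaged 17106 in LPS+NaBu, 38732 in LPS and 23857 in Control cells (-1.18 against LPS, adjusted p = 5.80e-11). Pfdn6, a subunit of prefoldin, averaged 8184 in LPS+NaBu, 2897 in LPS and 3762 in Control cells (1.499, adjusted p = 6.42e-11). Tbcel, a relative of the cofactor Tbce, averaged 4345 in LPS+NaBu, 2059 in LPS and 2700 in Control cells (1.08, adjusted p = 1.54e-10). Of 12 autoregulation genes, 3 were higher and 8 lower in LPS+NaBu than in LPS (median -0.50), beside 40.2% and 37.8% of all genes. Ttc5, the factor that binds nascent tubulin, averaged 1647 in LPS+NaBu, 1535 in LPS and 1663 in Control cells and was not called (0.10, adjusted p = 0.127). Scaper averaged 1826 in LPS+NaBu, 598 in LPS and 731 in Control cells (1.61, adjusted p = 1.10e-09). Of the CCR4-NOT genes, Cnot10 averaged 5646 in LPS+NaBu, 2638 in LPS and 3269 in Control cells (1.10, adjusted p = 2.14e-10). Cnot6l, a deadenylase subunit, averaged 2421 in LPS+NaBu, 4673 in LPS and 3380 in Control cells (-0.95, adjusted p = 1.12e-06). The gamma-tubulin ring complex and augmin were covered by 18 genes. Of these, 7 were higher and 8 lower in LPS+NaBu than in LPS, beside 40.2% and 37.8% of all genes. In LPS against Control 0 of the 18 were higher and 12 lower, beside 25.2% and 30.8% of all genes. Nedd1, which anchors the complex to centrosomes, averaged 662 in LPS+NaBu, 1441 in LPS and 1808 in Control cells (-1.12 against LPS, adjusted p = 1.96e-08).

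Markers of dividing cells were lower in LPS+NaBu cells, as were the isotypes that fell there. All 12 mitotic and proliferation markers were lower in LPS+NaBu than in LPS (median log2 change -2.00), beside 37.8% of all genes. All 12 were also lower in LPS than in Control (median -0.64), beside 30.8% of all genes. The isotypes split otherwise in that comparison. Of those that fell with NaBu, Tuba1b, Tuba4a, Tubb4b and Tubb5 were lower, Tuba1c was higher (log2 change 0.14) and Tubb6 was not called (-0.01). Of those that rose with NaBu, Tuba1a (-0.61), Tubb2a (-1.31) and Tubb2b (-1.26) were lower, and Tubb3 was not called. The summed level of these markers was 18206 to 19287 in LPS+NaBu, 71209 to 76199 in LPS and 117711 to 122824 in Control libraries. None of the 12 was at 0 in any group, and their part in the fall of Tuba1b and Tubb5 was not tested. Neuron markers beyond the tubulins were sparse. Of 12, only Syp could be tested (log2 change 1.08 in LPS+NaBu against LPS, adjusted p = 4.52e-05). The list summed to 185 to 231 in LPS+NaBu, 79.1 to 93.2 in LPS and 79.5 to 93.0 in Control libraries, and Snap25, Stmn2, Syt1 and Gap43 had no read in any library. Of 7 fibroblast markers 4 could be tested, and all 4 passed the filter only through LPS+NaBu, so that their direction was set by it, with sums of 272 to 296 in LPS+NaBu, 13.0 to 18.8 in LPS and 6.36 to 12.1 in Control libraries. No epithelial marker could be tested, and the sums were 4.46 to 18.6 in LPS+NaBu and 0 in LPS and Control libraries.

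Of the 4 pairs of isotypes that were each other's nearest, 3 joined an alpha with a beta gene. Likeness was taken as the Euclidean distance between log2 values over the 9 libraries after each gene's own mean was subtracted, where 0 is an identical pattern. Tuba1c lay nearest to Tubb6 (0.24) and Tuba4a to Tubb4b (0.26), followed by the beta genes Tubb2a and Tubb2b (0.62) and by Tuba1b with Tubb5 (0.67). Tuba1a and Tubb3 had no isotype as near, with Tubb2a at 1.55 from Tuba1a and Tubb2b at 2.39 from Tubb3. Over all tested genes, the nearest to Tuba1b were Ubtf (0.16), Gtf2i and Kif22, and to Tubb5 Cdca8 (0.13), Shmt2 and Map4k1. The nearest to Tuba1c was Atp1b3 (0.08), then Pbdc1 and Noc2l. For Tubb6 they were Stoml2 (0.10), Nhp2l1 and Rexo2, for Tuba4a Atad3a (0.09), Mars and Gpx1, and for Tubb4b Dnajc9 (0.17), Knstrn and Ssbp4. The isotypes that rose had more distant neighbours. The distance is not scaled, so larger changes and noisier low counts make it larger by themselves. Ypel3 was nearest to Tubb2a (0.35, then Adarb1 and Akp-ps1) and also to Tubb2b (0.55, then Coro2a and Hebp1). Tuba1a lay nearest to Dos (0.26), Casp6 and H2-DMa, and Tubb3 to Cdh15 (0.53), Cidea and 5730559C18Rik, which had no read in any LPS or Control library.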

How the data were processed

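RNA of 9 libraries (LPS+NaBu, LPS and Control, 3 each) was sequenced as paired reads after a directional kit. The methods of the study list Trimmomatic for trimming, HISAT2 for alignment and featureCounts for counts of uniquely mapped reads, whereas mm39, DESeq2 and STAR 2.7.7a stand in the processing notes of the submitters. The sources used here do not say which aligner made the files or how strand was set. Although named FPKM, the deposited signal values are gene counts that the authors scaled by a constant for each library. Within each of them 100% of values were whole multiples (within 0.001 of a read) of a single step, and that step times the DESeq2 size factor was 1. Read counts recovered this way served 2 alternatives, edgeR 4.0.16 and DESeq2 1.42.0.

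Genes at 10 or more in at least 3 of 9 libraries (14808) were fitted in limma 3.58.1 (R 4.3.3) on log2(value + 1) with an intensity trend, 1 mean per group, no covariate, two-sided tests and Benjamini-Hochberg adjustment. The log2 scale with a pseudocount understates changes of low genes. Of the gene identifiers, 38984 (89.35%) matched GENCODE M39, which gave positions, lengths and sequences. The coding ends of Tuba1a, Tuba1b and Tubb6 are not reported here. The replicates are called biological by the submitters, but separate cultures are not described, so the spread behind each p-value is that among these libraries and may be technical. The fit was tested on simulated counts in which few genes changed. Most genes were called with NaBu in these data, so that test does not speak to the scaling of libraries. All 10 isotypes were named, and from each list up to 3 genes with the largest absolute log2 change among those called in LPS+NaBu against LPS with a mean of at least 10 in a group, together with Hdac6, Sirt2, Atat1, Ttl, Vash1, Vash2 and Ttc5 whatever their values. The 4 overlapping genes, Svbp, Ttll4, Ttll9, Camsap3, Tacc2, Tubb4a and Syp were added after their values were seen. The isotypes and lists were chosen with earlier results of these data known. Alternatives were other scalings, tests, pseudocounts, filters and samples, a replicate block and leaving out each library.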

Additional observations from a re-analysis of the deposited data

How the results depend on the processing

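Under the 20 alternatives the isotype calls that changed were those of Tuba1c and Tubb6 in LPS against Control, and those of Tubb3 with LPS+NaBu, which were lost in 3. The single isotype called higher in LPS than in Control (Tuba1c) became 0 with libraries scaled to the same sum, with quantile normalization and without the intensity trend, and ranged between 0 and 1 when each library was left out. Tuba1c reversed to -0.086 at the same sum (adjusted p = 0.092) and to -0.18 with quantile normalization (adjusted p = 0.00188). Tubb6, not called at first, was lower at the same sum (-0.24, adjusted p = 0.000463) and with quantile normalization (-0.35, adjusted p = 1.05e-05). Scaling to the same sum shifted log2 changes by -0.23 in LPS against Control and by 0.28 in LPS+NaBu against LPS. It gave 2266 genes higher and 7078 lower in LPS against Control, in place of 3739 and 4568, so that 24.3% of calls were higher in place of 45.0%, and in LPS+NaBu against LPS 64.3% in place of 51.5%. Tubb3 fell out of the filter when an LPS+NaBu library was left out, so that the count higher in LPS+NaBu was then 3 in place of 4 and the isotypes called 9 in place of 10. Shares per kilobase depended on the length used, and with the union of exons, an alternative chosen after seeing the data, Tuba1a made up 32.5% and Tubb2a 8.65% of their pools in LPS+NaBu cells.

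Same-numbered libraries of different groups did not deviate together (correlations of -0.04 to 0.02 over 9 pairs), so no effect shared by number was seen. The labels do not say whether the numbers pair cultures. With the replicate block 10 isotypes were called in LPS+NaBu against LPS, 10 in LPS+NaBu against Control and 8 in LPS against Control, the same counts as without it, and all genes called in LPS against Control numbered 7977 in place of 8307.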
